A study of Homo sapiens with 6 samples.

Results

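From a total of 18417 genes measured, 10 genes of the BCL2 family were followed in A375 melanoma cells: the death promoters BMF, BCL2L11, PMAIP1, BBC3, HRK and BIK and the survival genes BCL2, BCL2L1, MCL1 and BCL2A1. They were chosen by symbol, with earlier results of these data known. Each was read from the only probe set that names its symbol. A375, an established line of human melanoma, carries the V600E change in the kinase BRAF, and both groups share that background. The 3 arrays of the drug condition came from cells given 10 µM vemurafenib, an inhibitor of mutant BRAF, for 24 h, and the 3 control arrays from cells given vehicle (0.1% DMSO) for 24 h. The replicates of a group came from separate cell stocks handled on separate days, all of 1 cell line. Levels are log2 array values, and changes are differences of group means on that log2 scale, vemurafenib minus vehicle.

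BCL2 family proteins decide whether the outer mitochondrial membrane is breached, the step that releases cytochrome c and starts the caspase cascade. BCL2, BCL-XL (encoded by BCL2L1), MCL1 and A1 (encoded by BCL2A1) hold the pore-forming effectors BAX and BAK in check, and the BH3-only proteins bind those survival proteins in a groove and free the effectors. In melanoma cells, ERK signalling is known to drive degradation of BIM, the product of BCL2L11, and inhibitors of this pathway are known to raise BIM and BMF. Much of this control acts on the proteins, which these arrays did not measure.

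The family moved in both directions with vemurafenib. Of the 10 genes, 3 rose (BMF, BCL2L11 and BCL2A1), 4 fell (PMAIP1, BCL2, MCL1 and BCL2L1) and 3 did not pass the test (BBC3, HRK and BIK), by limma with Benjamini-Hochberg adjustment over all 18417 genes at a threshold of 0.05. Over all genes, 45.5% passed in either direction, 23.2% higher and 22.2% lower, so 7 of 10 stands beside a background of nearly 1 gene in 2. Changes that passed and reached 2-fold were found for 3 of the 10 (BMF, PMAIP1 and BCL2A1) and for 5.69% of all genes. BCL2A1 was only just past 2-fold: its log2 change was 0.95 without vehicle replicate 1 and 0.98 after centring over the genes tested. The 3 vemurafenib arrays lay wholly above or below the 3 vehicle arrays for the same 7 genes that passed, and for 55.4% of all genes. The median change was -0.00085 over the 10 genes, 0.12 over the 6 death promoters, -0.58 over the 4 survival genes and -0.05 over all genes tested. With so many genes called, these counts describe the family and were not tested against other genes. Since the 10 genes were chosen with earlier results of these data known, the shares over all genes are no test of them.

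**Figure D1:**
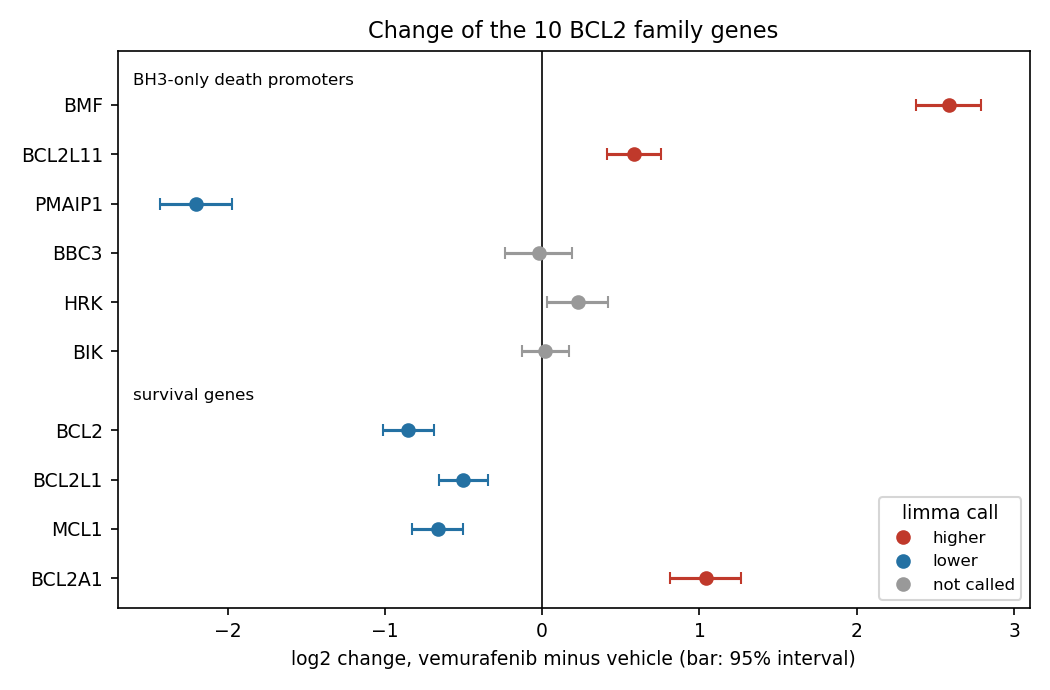
Log2 change (x axis, vemurafenib minus vehicle) of the 10 genes, grouped by role, with 95% intervals from limma and colours for the call at an adjusted p of 0.05. BMF at 2.58 and PMAIP1 at -2.20 lie farthest from 0 on either side, and BCL2, BCL2L1 and MCL1 lie between -0.85 and -0.50.

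Other measurements set the frame for these values. Array medians lay between 7.69 and 7.73, and arrays carry no read depth, so their number limits the precision. DUSP6, an ERK phosphatase whose transcription depends on ERK activity, averaged 7.0 ± 0.03 with vemurafenib and 11.21 ± 0.04 with vehicle (SD, n = 3 each). Of 7 measured melanocyte and melanoma markers, SOX10, MITF, S100B and S100A1 stood above the 95th percentile of 341 olfactory receptor genes, which is 7.28, whereas PMEL, MLANA and TYR did not. That percentile is used below as the level under which a gene was not shown to be above background. DUSP6 lay under it on all 3 vemurafenib arrays (6.99, 7.03 and 6.98). RNA was taken from whole dishes, so fewer cells with a transcript and less of it per cell cannot be told apart.

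The start-site windows of 4 of the genes are shown because 3 of them changed by at least 2-fold and BCL2L11 is the family member best known as a FOXO target. RefSeq windows of build GRCh38.p14, running from 250 bases before to 50 bases after an annotated start, were found for 8 of the 10 genes, BIK and MCL1 being the others. They were searched on both strands for the FOXO core GTAAACA, the E-box CACGTG and the CRE core TGACG. The E-box spelling CATGTG was added after the sequences had been seen. No 2 of these matches overlapped. Capitals mark the matches, all windows are written 5′ to 3′ on the gene's strand, and BMF is shown at the farther upstream of its starts.
BMF, chr15:40108830-40109129, minus strand: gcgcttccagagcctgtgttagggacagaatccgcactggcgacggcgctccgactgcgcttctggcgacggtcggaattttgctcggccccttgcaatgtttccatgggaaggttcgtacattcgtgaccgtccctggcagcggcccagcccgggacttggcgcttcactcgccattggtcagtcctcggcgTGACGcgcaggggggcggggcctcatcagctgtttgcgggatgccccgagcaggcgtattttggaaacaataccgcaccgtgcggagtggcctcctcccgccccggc
BCL2L11, chr2:111120664-111120963, plus strand: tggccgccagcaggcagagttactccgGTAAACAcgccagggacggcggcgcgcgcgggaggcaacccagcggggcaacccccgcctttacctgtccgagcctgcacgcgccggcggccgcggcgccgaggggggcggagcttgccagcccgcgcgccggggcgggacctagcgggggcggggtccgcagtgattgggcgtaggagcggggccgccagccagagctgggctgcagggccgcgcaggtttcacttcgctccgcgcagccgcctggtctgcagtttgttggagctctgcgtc
PMAIP1, chr18:59899746-59900045, plus strand: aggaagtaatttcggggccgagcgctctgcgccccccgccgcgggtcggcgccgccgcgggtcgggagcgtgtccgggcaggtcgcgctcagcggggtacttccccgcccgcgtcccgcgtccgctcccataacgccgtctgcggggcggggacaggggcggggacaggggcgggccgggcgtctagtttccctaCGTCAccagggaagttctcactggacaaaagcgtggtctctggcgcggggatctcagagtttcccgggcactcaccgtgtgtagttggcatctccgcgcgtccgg
BCL2A1, chr15:79971147-79971446, minus strand: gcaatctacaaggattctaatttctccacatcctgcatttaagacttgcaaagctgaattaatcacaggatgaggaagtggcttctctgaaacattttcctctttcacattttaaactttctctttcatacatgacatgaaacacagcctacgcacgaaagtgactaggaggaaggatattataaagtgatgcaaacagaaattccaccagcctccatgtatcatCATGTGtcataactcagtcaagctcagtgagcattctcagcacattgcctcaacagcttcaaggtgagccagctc

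The BCL2L11 window held GTAAACA at positions -223 to -217 from the start, and 3.42% of 35116 windows of this length hold that core. The CRE core stood at -57 to -53 in BMF, which rose, and on the other strand at -55 to -51 in PMAIP1, which fell. The window at the other start of BMF held none of these motifs, nor did the other window of BCL2L1. This core is common, being found in 24.6% of all windows. It was also present in the windows of HRK and BCL2 and in 1 of the 2 windows of BCL2L1. BCL2A1 held CATGTG at -25 to -20, a spelling found in 11.1% of windows and also in the HRK window. CACGTG occurred in the BBC3 window and in 7.26% of all. These matches describe the letters of the windows only.

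BMF, the BH3-only protein that binds dynein light chain, had the largest rise of the family. It stood at 9.99, 9.94 and 9.97 on the vemurafenib arrays, against 7.18, 7.56 and 7.41 on the vehicle arrays. All 3 vemurafenib arrays were high and close together, while the vehicle arrays spread more widely and lay just around the background level of 7.28, 1 of them below it. The change of 2.58 (SE 0.09, 95% interval 2.38 to 2.79, 6.0-fold) had a limma adjusted p of 4.45e-09 and ranked 32nd among the rises of all genes. The vehicle level was close to background, which limits the fold.

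BCL2L11, the gene of BIM, which binds all the main survival proteins, rose by much less. Its levels were 8.71, 8.75 and 8.78 with vemurafenib, against 8.12, 8.08 and 8.29 with vehicle. The groups lay apart, with all 6 arrays above the background level. The change was 0.58 (SE 0.08, interval 0.41 to 0.75, 1.5-fold, limma adjusted p 7.52e-05), an interval that did not reach that of BMF. The gene makes several BIM isoforms, which 1 value per gene does not separate.

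PMAIP1, the gene of NOXA, a BH3-only protein that mainly binds MCL1 and A1, moved the other way. It stood at 7.51, 7.26 and 7.15 with vemurafenib, against 9.64, 9.36 and 9.51 with vehicle. The groups lay far apart, and 2 of the vemurafenib arrays fell below the background level. The change of -2.20 (SE 0.10, interval -2.43 to -1.97, 4.6-fold lower) had a limma adjusted p of 2.83e-08 and ranked 40th among the falls of all genes. Here the vemurafenib level was the one near background, with the same limit on the fold.

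The remaining death promoters did not pass. BBC3, the gene of the BH3-only protein PUMA, stood at 8.48, 8.44 and 8.69 with vemurafenib and at 8.46, 8.74 and 8.47 with vehicle. The groups overlapped throughout, and the interval of the change ran from -0.24 to 0.19 (change -0.02, limma adjusted p 0.872). HRK, known mainly from neurons, stood at 9.77, 9.81 and 9.94 with vemurafenib and at 9.49, 9.77 and 9.56 with vehicle.

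For HRK, 1 vehicle array (replicate 2) overlapped the lower edge of the vemurafenib arrays. Its change of 0.23 (interval 0.03 to 0.42) had a limma adjusted p of 0.0560, just outside the threshold. Without vehicle replicate 2 the change was 0.31 and passed (limma adjusted p 0.0111, range over all alternatives 0.00767 to 0.205). BIK, the founding BH3-only gene, stayed at 6.33, 6.32 and 6.28 with vemurafenib and 6.23, 6.32 and 6.31 with vehicle. All 6 values lay below the background level, so whether BIK expression changed cannot be told from them (interval -0.13 to 0.17, limma adjusted p 0.831).

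**Figure D2:**
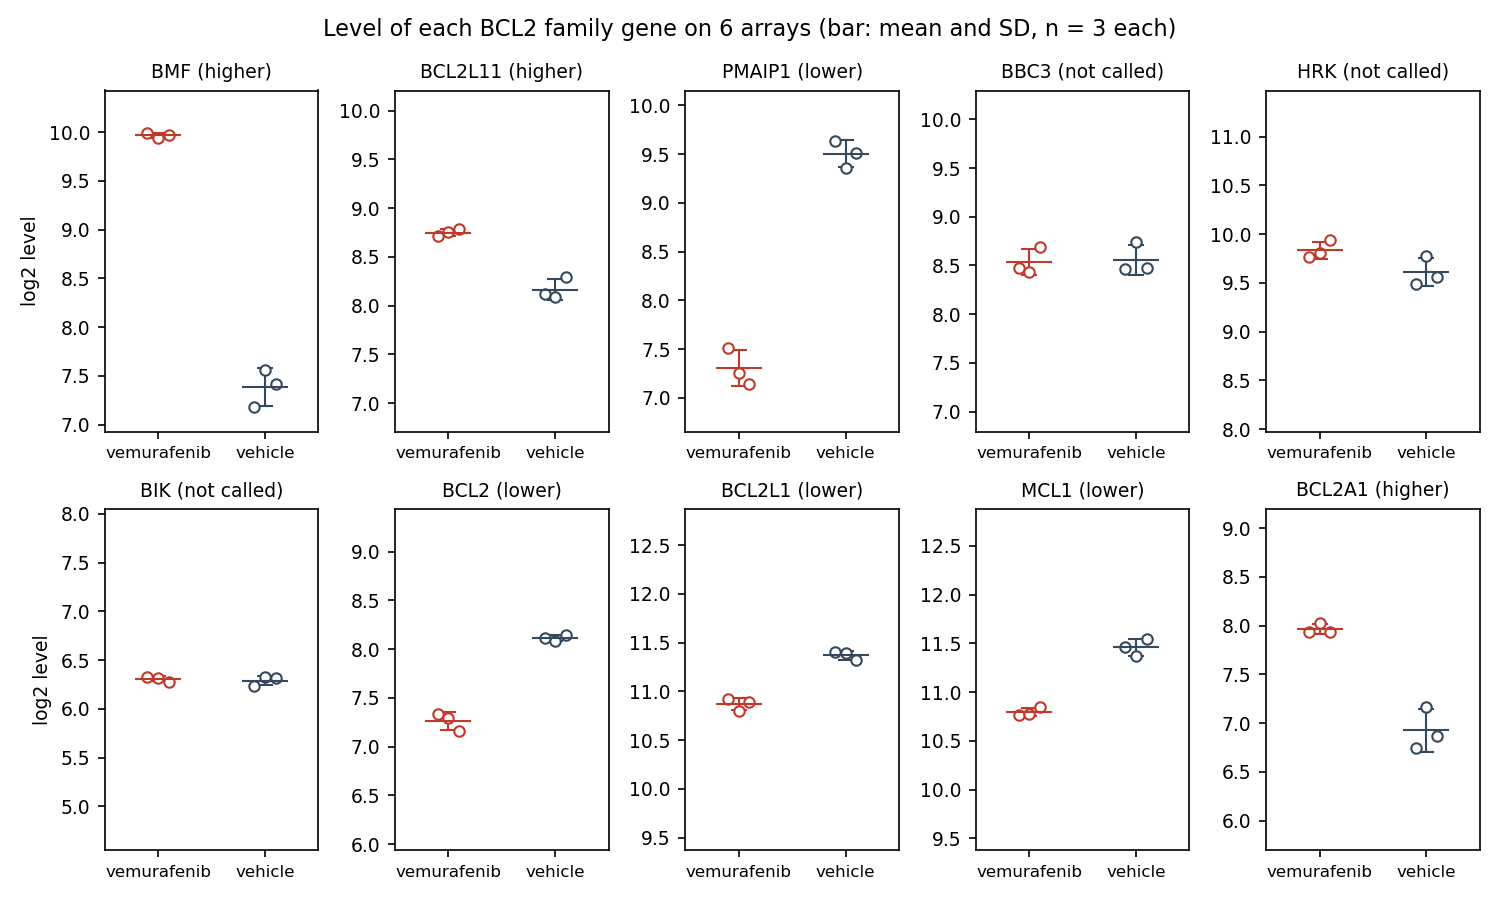
Log2 level (y axis) of each gene on the 3 vemurafenib arrays (red, left) and the 3 vehicle arrays (dark, right), with the mean and SD; each panel has its own range but spans the same 3.5 log2 units, and the panel title gives the limma call. The groups lie apart in 7 panels and overlap in those of BBC3, HRK and BIK.

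Of the 4 survival genes, 3 fell. BCL2, the founding survival gene, stood at 7.34, 7.29 and 7.16 with vemurafenib, against 8.11, 8.09 and 8.14 with vehicle. The groups lay apart, and the vemurafenib mean of 7.26 was just under the background level. The change was -0.85 (SE 0.07, interval -1.01 to -0.69, 1.80-fold lower, limma adjusted p 2.82e-06).

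MCL1, a short-lived survival protein that NOXA targets, stood at 10.77, 10.78 and 10.84 with vemurafenib, against 11.46, 11.37 and 11.55 with vehicle. Its change of -0.66 (SE 0.07, interval -0.83 to -0.50, 1.58-fold lower) had a limma adjusted p of 1.97e-05. BCL2L1, which encodes BCL-XL, stood at 10.92, 10.80 and 10.89 with vemurafenib, against 11.41, 11.39 and 11.32 with vehicle. Both genes were well above background on every array, and in both every vemurafenib array lay below every vehicle array. The change of BCL2L1 was -0.50 (SE 0.07, interval -0.66 to -0.34, 1.41-fold lower, limma adjusted p 0.000133). Both genes also make short splice forms with the opposite effect on survival, which 1 value per gene does not separate.

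BCL2A1, the gene of the survival protein A1, was the exception and rose. It stood at 7.93, 8.03 and 7.94 with vemurafenib, against 6.74, 7.17 and 6.86 with vehicle. The groups lay apart, with all vehicle arrays below and all vemurafenib arrays above the background level. The change was 1.04 (SE 0.10, interval 0.82 to 1.27, 2.06-fold, limma adjusted p 7.67e-06), and with its vehicle arrays in the background range the fold is only a ratio of array values.

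BCL2A1 is best known from leukocytes and, as a MITF target, from melanocytes. Of 6 measured leukocyte markers 1 was called higher (CD68, which is also a general lysosomal protein, by 1.01) and 1 lower (CD14, -0.32, below the background level on all 6 arrays). The summed log2 level of these markers was 43.10 to 43.37 with vemurafenib and 42.52 to 43.17 with vehicle, but only CD68 stood above the background level, so the sum says little. The dishes were of 1 cell line, A375, with no leukocytes in the design, so these markers only describe that line. PTPRC, the pan-leukocyte marker, was at 4.65 ± 0.05 with vemurafenib and 4.53 ± 0.18 with vehicle (SD, n = 3 each), below the olfactory receptor median of 5.50. MITF itself stood at 10.91 ± 0.03 with vemurafenib and 10.17 ± 0.05 with vehicle (SD, n = 3 each), a change of 0.75. The part of MITF in the rise of BCL2A1 was not tested.

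**Figure D3:**
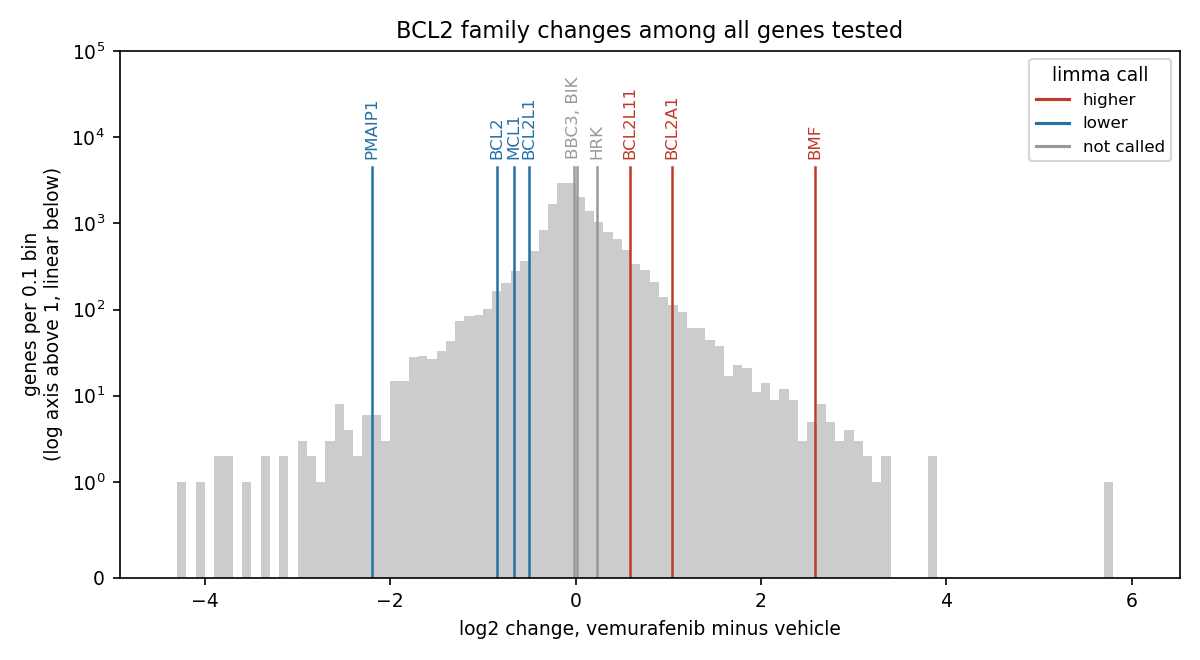
Number of genes (y axis, logarithmic above 1) by log2 change (x axis, bins of 0.1) over the 18417 genes, with a line at each BCL2 family gene coloured by its limma call. BMF lies in the right tail as the 32nd largest rise and PMAIP1 in the left tail as the 40th largest fall, while BBC3 and BIK stand at 0.

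The levels of BMF, PMAIP1 and BCL2A1 across the 6 arrays were set against those of all other genes. Pearson's r over 6 arrays was highest with SLC25A35, CASTOR3P and CAPN5 for BMF (0.9989 to 0.9996), with DIAPH3, MTA2 and TYMS for PMAIP1 (0.9996 to 0.9998) and with YPEL4, SPX and ABCC10 for BCL2A1 (0.9969 to 0.9986). Such values are frequent where 2 groups lie apart: 313 genes exceeded 0.99 with BMF, 638 with PMAIP1 and 29 with BCL2A1. They are given as a description, since the 6 points share the groups and the normalization.

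Further genes of the death machinery were read against the same background, in which 23.2% of all genes were called higher and 22.2% lower, with a median change of -0.05. Of 12 further measured BCL2 family members, 2 rose and 4 fell, with a median change of -0.08. BAK1, a pore-forming effector, averaged 9.17 ± 0.10 with vemurafenib and 9.68 ± 0.06 with vehicle (SD, n = 3 each), a change of -0.51 with a limma adjusted p of 0.000215. The other effector BAX stood at 10.84 ± 0.13 with vemurafenib and 10.86 ± 0.04 with vehicle (SD, n = 3 each; change -0.02, limma adjusted p 0.852). BID, which links death receptors to mitochondria, changed by -0.63, BNIP3, a mitophagy receptor, by -0.60 and BCL2L12 by -0.47. BCL2L13 rose by 0.40. The other gene called higher, the BH3-only gene BAD (0.27, limma adjusted p 0.0443), did not pass without vehicle replicate 3 (0.176), vemurafenib replicate 1 (0.108) or vemurafenib replicate 3 (0.133). It was also lost when replicate numbers entered as a block, fixed (0.0824) or random (0.0528), after centring over the genes tested (0.0933) or renewed quantile normalization (0.0907) and when every probe set was tested (0.104), over a range of 0.0197 to 0.176.

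**Figure D4:**
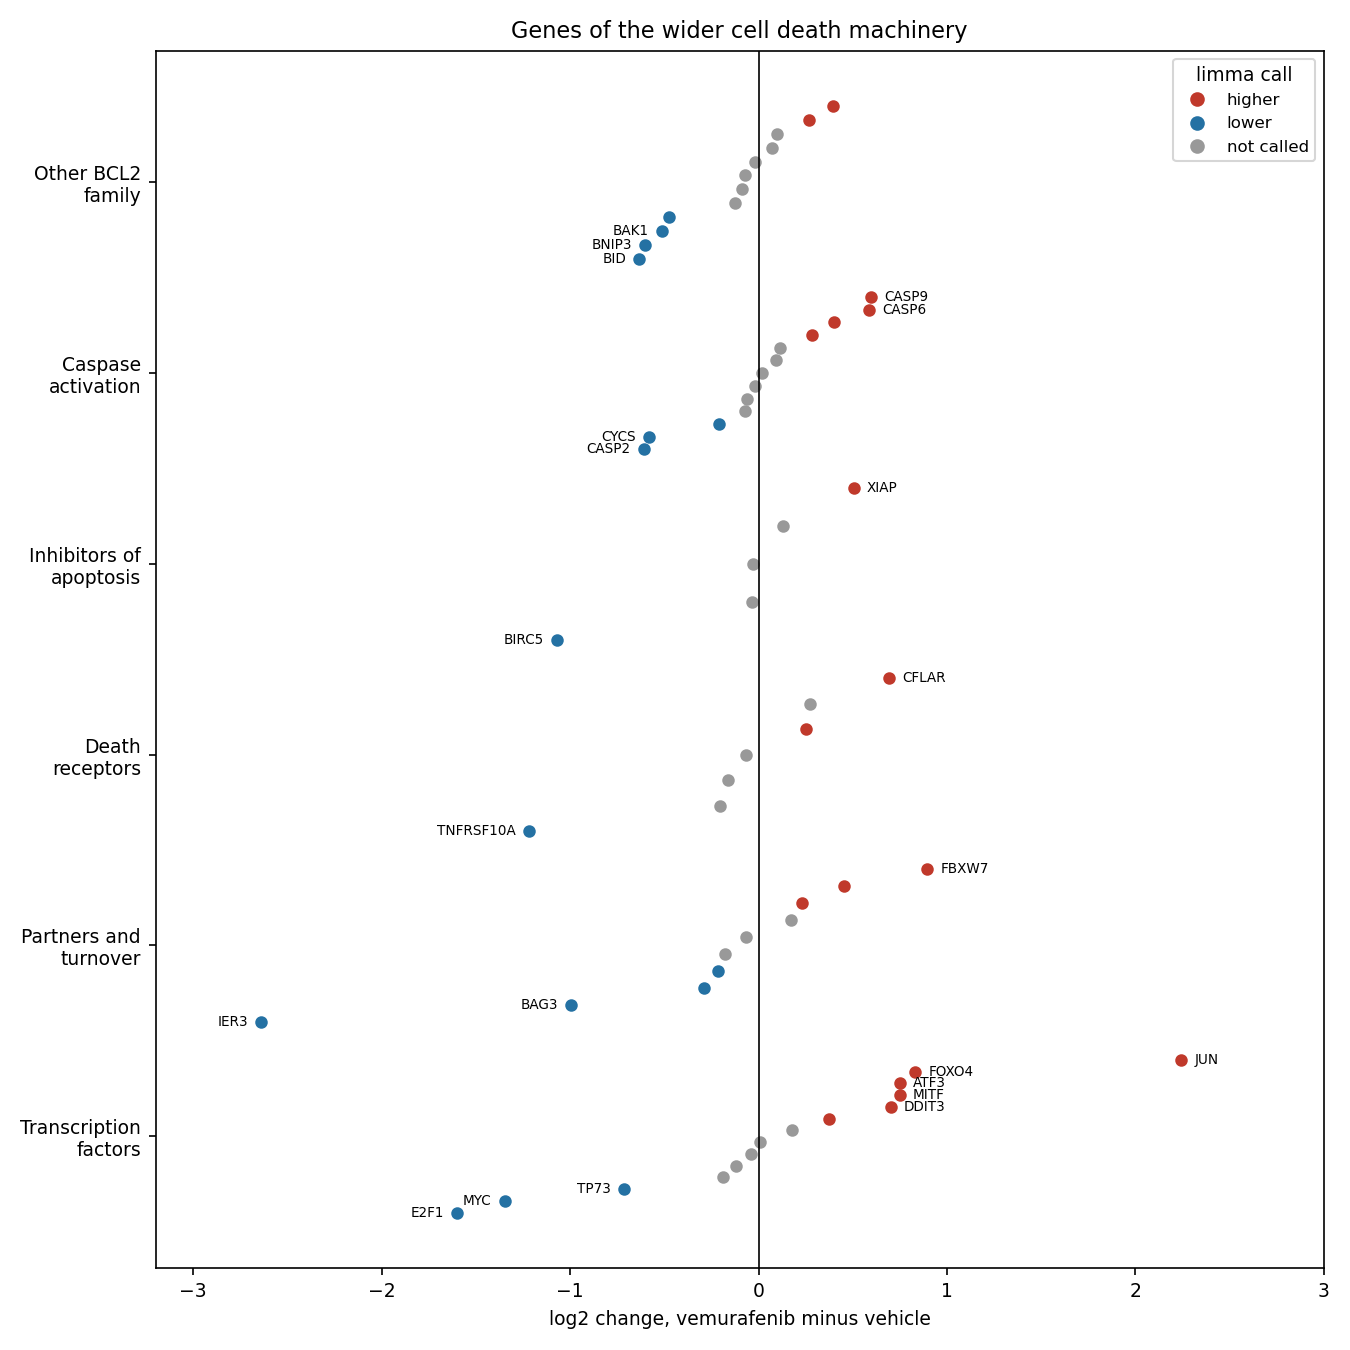
Log2 change (x axis, vemurafenib minus vehicle) of the measured genes in 6 lists of the cell death machinery (rows), 1 point per gene, coloured by limma call; genes with a change of at least 0.5 either way are named. IER3 at -2.64 and JUN at 2.24 lie farthest out, and BAX, APAF1 and DIABLO are among the points near 0.

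Downstream of the mitochondria, 4 of 13 measured genes of caspase activation were called higher and 3 lower, with a median change of 0.02. CASP9, the initiator caspase of the mitochondrial pathway, averaged 9.50 ± 0.13 with vemurafenib and 8.90 ± 0.19 with vehicle (SD, n = 3 each). CASP9 rose by 0.60, CASP6, an executioner caspase, by 0.59 and HTRA2, a mitochondrial protease that binds inhibitors of apoptosis, by 0.40. CASP10, an initiator caspase of death receptors, is the other gene called higher (0.28), but all 6 of its values lay below the background level, where no change of expression can be read. The gene did not pass without vehicle replicate 1 (limma adjusted p 0.0539, range over alternatives 0.00573 to 0.0539). CASP2 changed by -0.61 and CYCS, the somatic cytochrome c gene, by -0.58. The apoptosome scaffold APAF1 (-0.07) and DIABLO (-0.02), which relieves caspase inhibition, did not pass.

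Of 5 inhibitors of apoptosis proteins, 1 rose and 1 fell. XIAP, a direct caspase inhibitor, was at 8.98 ± 0.05 with vemurafenib and 8.48 ± 0.13 with vehicle (SD, n = 3 each), a rise of 0.51. BIRC5, the gene of survivin, which also serves in mitosis, was at 8.94 ± 0.15 with vemurafenib and 10.01 ± 0.09 with vehicle (SD, n = 3 each), a change of -1.07. These values are from the brighter of its 2 probe sets, and the mean of both changed by -0.89. BIRC7, the gene of livin, a melanoma inhibitor of apoptosis, changed by -0.03 and did not pass.

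Among 7 measured genes of death receptor signalling, 2 rose and 1 fell. TNFRSF10A, a receptor for the death ligand TRAIL, stood at 7.42 ± 0.10 with vemurafenib and 8.64 ± 0.04 with vehicle (SD, n = 3 each). Its change was -1.22 (limma adjusted p 2.06e-07). The vemurafenib arrays of TNFRSF10A lay just above the background level (7.41, 7.33 and 7.53), which limits the fold. The other TRAIL receptor gene TNFRSF10B changed by -0.07 and did not pass. CFLAR, the gene of the caspase-8 inhibitor FLIP, rose by 0.69, and by 0.97 as the mean of its 2 probe sets. Its vehicle arrays were at 7.39, 7.20 and 7.49, around the background level, which limits the fold. The rise of TNFRSF1A, a receptor for TNF (0.25, limma adjusted p 0.0304), did not pass without vehicle replicate 2 (0.0886), vehicle replicate 3 (0.0682), vemurafenib replicate 1 (0.0966) or vemurafenib replicate 3 (0.0951). It was also lost after centring over the genes tested (limma adjusted p 0.0633) and when every probe set was tested (0.0701), within a range of 0.00873 to 0.0966.

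Of 10 partners and turnover factors of the family, 3 rose and 4 fell. IER3, an early response gene with a role in survival, averaged 9.50 ± 0.08 with vemurafenib and 12.14 ± 0.04 with vehicle (SD, n = 3 each), a change of -2.64 that ranked 18th among the falls of all genes. BAG3, a co-chaperone that stabilizes survival proteins, changed by -0.99 and DYNLL2, the dynein light chain that binds BMF, by -0.29. FBXW7, a ubiquitin ligase subunit whose substrates include MCL1, rose by 0.90, and USP9X, which removes ubiquitin from MCL1, rose by 0.46. HUWE1, another ligase of MCL1, rose by 0.23 and did not pass when vehicle replicate 1 (limma adjusted p 0.0578) or replicate 1 of vemurafenib (0.0534) was left out, over a range of 0.000798 to 0.0578.

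Of 14 measured transcription factors known to act on family genes, 6 rose and 3 fell, with a median change of 0.09. JUN, an AP-1 subunit linked to BIM transcription in neurons, was at 10.77 ± 0.08 with vemurafenib and 8.52 ± 0.07 with vehicle (SD, n = 3 each), a change of 2.24. Among the FOXO factors, FOXO4 rose by 0.83, whereas FOXO3 (7.57 ± 0.06 with vemurafenib and 7.61 ± 0.18 with vehicle, SD, n = 3 each) and FOXO1 (0.18, limma adjusted p 0.0523) did not pass. The stress factor gene ATF3 rose by 0.75. Its vehicle arrays lay below the background level (6.58, 6.81 and 6.61) and its vemurafenib arrays just above it (7.34, 7.47 and 7.45). This limits the fold. ATF4, one of the activators of ATF3, changed by 0.01 and did not pass. E2F1, a cell cycle factor that can switch on BH3-only genes, changed by -1.60 and MYC by -1.35. FOXO proteins and ATF4 are controlled mainly after transcription, and none of these factors' activity was measured here.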

How the data were processed

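The authors deposited 1 log2 level for each probe set and array. The submitters' processing notes name RMA and Partek, with no version. RMA usually removes background, brings the arrays to 1 distribution by quantiles and combines each set's probes, so large folds are compressed and a change of total RNA per cell is hidden. The build the authors used is not given in the sources used here. Of 33297 probe sets, 19460 named 1 gene symbol in the 2016 platform annotation, 1754 several and 12083 none. The brightest per gene was kept (18417 genes).

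All genes were fitted together with limma 3.58.1 in R 4.3.3 (lmFit, eBayes, group as the only term, 2-sided, Benjamini-Hochberg over all genes, threshold 0.05, prior degrees of freedom 7.08), with no filter on dim genes. The series' design text states that vehicle and vemurafenib dishes were paired within batches A, B and C. Only 1 array's label carries such a letter, so which arrays form the pairs is not known and the replicate number as a block was an alternative. The code was tested on simulated data. The family genes and all companion lists were chosen with earlier results of these data known. Companion genes were named by a rule: up to 6 called genes per list by size of change, any with a change of at least 1, uncalled ones where wanted, and the 3 genes closest in pattern to each family gene with a called change of at least 1. Lists carry counts and medians only. Some companion genes are not reported here. Promoter windows were searched with Python 3.11.15, and figures drawn with matplotlib 3.10.9. The alternatives were 2 forms of replicate block, 3 scalings (1 of them, centring over the genes tested, added after seeing the data), 2 filters on dim genes, 2 treatments of probe sets, 2 variance models, omission of each array and a stricter threshold of 0.01.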

Additional observations from a re-analysis of the deposited data

How the results depend on the processing

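Over 18 alternatives, the number of family genes called higher was 3 or 4 and the number called lower 3 or 4, and the 7 calls kept their direction and their side of the threshold wherever the gene was tested. The filter on the dimmer 50% of genes removed BIK, BCL2 and BCL2A1, and that on the dimmest 25% removed BIK. The number of genes called over the whole table ran from 5960 to 9948. Leaving out single arrays gave 2.48 to 2.67 for BMF, 0.54 to 0.65 for BCL2L11, -2.30 to -2.12 for PMAIP1, -0.89 to -0.80 for BCL2, -0.53 to -0.47 for BCL2L1, -0.71 to -0.62 for MCL1 and 0.95 to 1.16 for BCL2A1. HRK passed in 5 alternatives: without the dimmest 25% (limma adjusted p 0.0416) or 50% of genes (0.0299), both of which test fewer genes, with an intensity trend and robust eBayes together (0.0377), with array weights (0.00767) and without vehicle replicate 2 (0.0111). The causes of the last 3 were not tested. Among genes that never passed, the sign of BBC3 turned with array weights (0.012) and within its leave-one-out range of -0.098 to 0.068, and that of BIK with centring over the genes tested (-0.041) and within its leave-one-out range of -0.0085 to 0.038. The cause was not tested. Centring over the genes tested moved the median change of all genes to -0.11, against -0.05, and the split of calls to 3682 higher and 5630 lower, against 4281 and 4090.

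The replicate block left 3 family genes called higher and 4 lower, as a fixed and as a random term, and gave 7606 and 7923 calls over all genes. Same-numbered arrays did not deviate together (correlations of 0.14, -0.18 and -0.25 over genes), so the numbers were not taken to pair the arrays. Vemurafenib replicates 1, 2 and 3 correlated best with vehicle replicates 1, 3 and 2 (0.14, 0.22 and 0.28), a hint from the data only, and no fit with that order was run. The block ended the calls of BAD (limma adjusted p 0.0824 fixed, 0.0528 random), DFFA (0.0633 and 0.0583) and, as a fixed term, BAG1 (0.0638). Of the 37 calls of companion genes lost in single settings, those of BAD, DFFA, BAG1 and TNFRSF1A were lost most often, in 6 to 10 settings each. Further BCL2 family genes called higher numbered 1 in 9 settings, through BAD. Centring over the genes tested gave 1 higher and 3 lower for death receptor genes and 5 lower transcription factors, and the filter on the dimmer 50% left 2 caspase activation genes higher. The number of arrays and levels near background, for BMF and BCL2A1 in vehicle and for PMAIP1 and BCL2 with vemurafenib, limit the folds. Levels near background also limit the folds of ATF3 and CFLAR, in vehicle, and of DUSP6 and TNFRSF10A, with vemurafenib.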

Other observations

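The spread among vehicle arrays was not even. Vehicle replicate 2 was the highest or lowest of its group for 9 of the 10 family genes, and for 80.61% of all genes, so the family followed the table in this. It was the highest vehicle array for BMF, BBC3, HRK, BIK and BCL2A1 and the lowest for BCL2L11, PMAIP1, BCL2 and MCL1. Vemurafenib replicate 1 was at the edge of its group for 9 of the 10 family genes, against 56.78% of all genes. Other arrays went the other way: vehicle replicate 3 for 4 of 10 against 61.95%, and vemurafenib replicate 2 for 4 of 10 against 68.85%. Vehicle replicate 1 and vemurafenib replicate 3 stood at 7 of 10 each, against 57.3% and 74.25%. With 10 genes, these counts are a description only.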
